A study of Homo sapiens with 36 samples.

Results

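The 9 genes described here, of 19689 tested, were higher in human neural stem cells after CRISPR-activation of MEIS1 and had, near an annotated start, a stretch of DNA that resembles the end of the MEIS1 activation guide. The genes are AK5, BDKRB2, C1QL4, ELFN2, FAM131A, GHR, ATP6V1E2, ABCG4 and ASS1. They were chosen by 2 properties, a higher level in MEIS1-OE and the match near a start, so neither property is a result here and the higher level is given as a description without a test. These 2 properties did not use the knockout of MEIS1, the activation and knockout of its paralog MEIS2, or the genes next to these 9. At a match of 8 bases the 2 properties also held for 37 other genes, and why these 9 were taken is not known here.

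The hNSC, a purchased line of human neural stem cells (Gibco), were harvested at 48 h after lentiviral transduction, 6 libraries for each of 6 conditions. Activation of MEIS1 (MEIS1-OE, labelled CRISPRa_MEIS1) or MEIS2 (MEIS2-OE, labelled CRISPRa_MEIS2) used a Cas9 without cutting activity that carries the VP64 activator, further activator proteins and 1 guide RNA per gene, and ctrl-OE (CRISPRa_ctrl) received the same system with a non-targeting guide. In MEIS1-KO (CRISPR_KO_MEIS1) and MEIS2-KO (CRISPR_KO_MEIS2), cutting Cas9 and a mixture of 2 guides against the gene were delivered from lentiCRISPRv2. The ctrl-KO cells (CIRPSR_KO_ctrl, as spelled in the labels) received a non-targeting guide. Each activation condition therefore rests on a single guide sequence, and nothing in the labels says whether the 6 libraries of a condition came from separate cultures, so p-values measure the spread between these libraries. The 36 libraries held 15429985 to 22940493 counted reads with a median of 20324720. MEIS1 was 310.2 ± 14.3 CPM (counts per 1000000 reads, mean ± SD, n = 6) in MEIS1-OE and 17.8 ± 1.10 in ctrl-OE, and it was 8.96 ± 1.74 in MEIS1-KO and 25.7 ± 1.66 in ctrl-KO. All 8 neural stem cell markers looked up, SOX2 and NES among them, were above 1 CPM in every library. The defining markers of pluripotent cells summed to at most 0.372 CPM in a library. The summed CPM of markers per library was 381 to 991 for neurons, 7.36 to 32.6 for astrocytes, 25.1 to 39.5 for the oligodendrocyte lineage, 1.59 to 11.9 for blood, 13.8 to 30.3 for endothelium and 30.6 to 108 for fibroblasts, and in MEIS1-OE and ctrl-OE these ranges overlapped for every list.

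In CRISPR-activation the guide RNA pairs with a stretch of DNA next to a short motif of the form NGG, the protospacer adjacent motif (PAM), where N is any base. The bases nearest the PAM form the seed, in which mismatches are tolerated least. A guide bound near the start of a gene brings the activator domains to that promoter. MEIS1 and MEIS2 are TALE homeodomain transcription factors, so genes that rise with MEIS1 activation can be downstream of the MEIS1 protein or can hold a sequence to which the guide itself could pair. The knockout of MEIS1 uses other guides and changes the MEIS1 level in the opposite direction, which is why it was set beside the activation.

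The sites of MEIS1 and 8 of the 9 genes are shown because they define the group. Each line gives the 20 bases of the target and the 3 bases of the PAM, 5′ to 3′, read from GRCh37. Capitals mark the unbroken run of bases, counted from the PAM, that equals the MEIS1 target, together with the GG of the PAM.
MEIS1: TGTGTGTTGCACAGGCGGAGaGG
ATP6V1E2: tgtccccaGCACAGGCGGAGtGG
GHR: tttggaacgggCAGGCGGAGaGG
AK5: gcccccggggagAGGCGGAGgGG
BDKRB2: gagctcagctggAGGCGGAGgGG
C1QL4: ggaaggttagggAGGCGGAGaGG
ELFN2: catggaggtacaAGGCGGAGaGG
FAM131A: aggcagaggtgtAGGCGGAGgGG
ABCG4: cggaccaggggaAGGCGGAGaGG

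The on-target site at MEIS1 (chr2:66662274-66662296, minus strand) lies in a non-coding part of an exon, 12 bases after the nearest annotated start. Among the 9 genes the match was short: 7 shared exactly 8 bases next to the PAM with it, GHR shared 9 and ATP6V1E2 shared 12. Over the whole 20 bases the mismatches numbered 5 in ATP6V1E2, 7 in GHR, 8 in C1QL4, 9 in FAM131A and ASS1, 10 in AK5, ELFN2 and ABCG4, and 11 in BDKRB2. Each gene had 1 such site within 1000 bases of a start.

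The sites lay on both sides of the starts. Downstream of a start were the sites of ABCG4 at 46 bases (chr11:119020266-119020288, minus strand), C1QL4 at 47 bases (chr12:49730921-49730943, minus strand) and AK5 at 92 bases (chr1:77747816-77747838, plus strand), all in non-coding parts of exons. The site of ASS1 lay after an internal start, in an intron of the longer transcripts. That of FAM131A lay at 548 bases in an intron (chr3:184054278-184054300, minus strand), the farthest of the 9. Upstream of a start were the sites of GHR at 58 bases (chr5:42423464-42423486, plus strand), BDKRB2 at 68 bases (chr14:96671089-96671111, plus strand), ATP6V1E2 at 479 bases (chr2:46747572-46747594, minus strand) and ELFN2 at 515 bases (chr22:37824026-37824048, minus strand). The BDKRB2 site overlapped an exon of a longer transcript and the ATP6V1E2 site an intron, whereas the sites of GHR and ELFN2 preceded every annotated transcript of their genes. No other annotated gene covered any of the 9 sites. Within 1000 bases of the BDKRB2 site lay also the start of ENSG00000258691, a protein-coding gene model on the same strand that was not tested. Near the ELFN2 site another gene model of the same name also started.

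**Figure D1:**
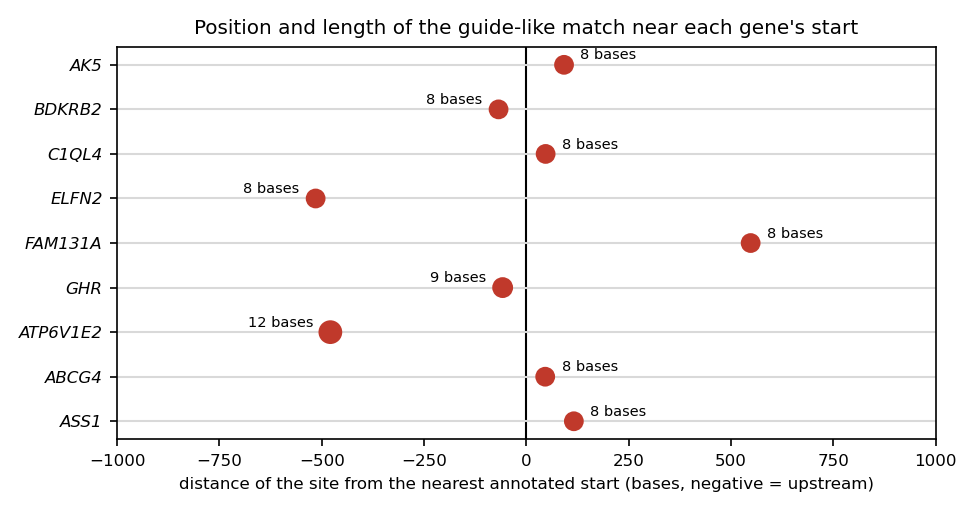
Distance of each site from the nearest annotated start of its gene, in bases, with negative values upstream. Point size and the printed number give the length of the match; 6 of the 9 sites lie within 150 bases of a start.

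An 8-base match is common in the genome. The letters AGGCGGAG, searched on both strands, occurred 226392 times in GRCh37, and 2855 of these were followed by NGG. Of 17078 tested genes with a position, MEIS1 itself left out, 641 (3.75%) had such a site within 1000 bases of a start, all 9 genes described here among them. With a run of at least 10 bases, the length set for the main search, 27 genes (0.158%) had a site, and ATP6V1E2 was the only one of the 9. The limit of 8 bases was set after it was seen that the other 8 genes hold no longer run than 9. Shorter runs were not searched.

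The share of genes called higher in MEIS1-OE differed with the length of the match and with the PAM. A gene was called at an adjusted p under 0.05 (edgeR's quasi-likelihood test, Benjamini-Hochberg) and an absolute log2 fold change above 0.58, and 442 of 19689 tested genes (2.24%) were called higher. Of the genes whose longest match followed by NGG was exactly 8 bases, 24 of 467 (5.14%) were called higher, and 17 of 460 (3.70%) when the 7 genes of this length described here are set aside. At exactly 9 bases the count was 10 of 147 (6.80%), or 9 of 146 (6.16%) without GHR. At 10 or more it was 12 of 27 (44.4%), or 11 of 26 (42.3%) without ATP6V1E2. Genes and not sites were counted, so a site near the starts of several genes counts for each of them. Where the same letters stood near a start but no match was followed by NGG, 124 of 6854 genes (1.81%) with 8 bases, 35 of 1080 (3.24%) with 9 and 2 of 179 (1.12%) with 10 or more were called higher. Of 8324 genes without an 8-base match, 198 (2.38%) were called higher. The shares are descriptions of this comparison, in which the 9 genes were also chosen.

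**Figure D2:**
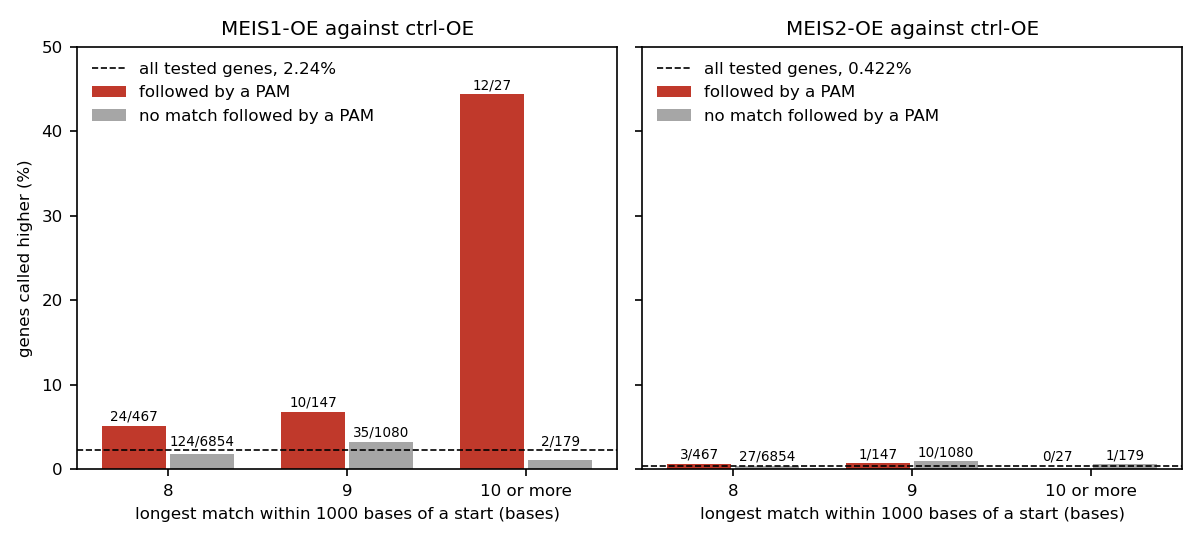
Share of genes called higher (percent, vertical axis) by the longest match to the MEIS1 target within 1000 bases of a start, with and without a PAM after the match, for MEIS1-OE and MEIS2-OE against ctrl-OE. The fractions give called genes over genes of that class and the dashed line gives all tested genes. With 10 or more bases and a PAM, 12 of 27 genes were called higher in MEIS1-OE, beside 2.24% of all tested genes. In MEIS2-OE it was 0 of 27, beside 0.422% of all tested genes, too few calls for that 0 to say anything particular.

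In MEIS2-OE, which used another guide but the same activator and the same ctrl-OE libraries, the genes with an 8-base match followed by NGG were near the level of all genes. There, 4 of 641 (0.624%) were called higher, against 83 of 19689 (0.422%) of all tested genes. With 10 or more bases and NGG it was 0 of 27, a count that with so few calls over all genes says nothing particular about these 27.

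The 9 genes were a part of a larger group. Of the 641 genes with an 8-base match and NGG, 46 were called higher in MEIS1-OE and 4 lower, and 37 of the 46 are not among the 9. Those 37 had log2 fold changes between 0.59 and 5.62 with a median of 1.07, and the 9 had a median of 0.94. Among the 26 other genes with 10 or more matching bases, 11 were called higher: PIANP (13 bases, log2 fold change 2.28 ± 0.08 SE), RABEP2 (11 bases, 3.50 ± 0.20), PROK1 (11 bases, 3.65 ± 0.93), RNF39 (11 bases, 2.26 ± 0.19), LINC00535 (12 bases, 1.48 ± 0.21), PPT2-EGFL8 (11 bases, 1.32 ± 0.12), PAK6 (11 bases, 1.22 ± 0.16), PPT2 (11 bases, 1.20 ± 0.06), USP38 (10 bases, 1.01 ± 0.06), ZNF672 (10 bases, 0.83 ± 0.07) and MGAT5B (12 bases, 0.66 ± 0.14). PPT2 and PPT2-EGFL8 share sequence, so their counts cannot be separated with certainty. Others of that length did not pass, such as FYN (11 bases, 0.55 ± 0.04), DAP (11 bases, -0.04 ± 0.04) and AGO1 (11 bases, -0.04 ± 0.05). The lowest log2 fold change was 0.66 (ATP6V1E2) among the 9 and 0.59 among the other 37, and BCL3, which also has an 8-base site, was just outside the threshold with 0.576. Of the 9, FAM131A had the site farthest from a start at 548 bases, and the nearest gene called higher beyond the window of 1000 bases was AGT at 1263 bases.

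Of the 9 genes, 3 encode proteins of the cell surface that were below 1 CPM in every ctrl-OE library. BDKRB2 encodes the bradykinin B2 receptor, a G protein-coupled receptor. In MEIS1-OE it was at 1.09 to 1.85 CPM with a median of 1.64, and in ctrl-OE at 0 to 0.121 with a median of 0.0208. All 6 MEIS1-OE libraries were above every ctrl-OE library, 3 of which held no read of BDKRB2. The log2 fold change of 4.95 ± 0.38 (SE) was the largest of the 9 and rests on 196 counts in MEIS1-OE and 6 in ctrl-OE.

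GHR encodes the growth hormone receptor, which signals through JAK2 and STAT5. Its levels were 1.05 to 1.53 CPM with a median of 1.19 in MEIS1-OE and 0.134 to 0.605 with a median of 0.262 in ctrl-OE, without overlap. The log2 fold change was 1.99 ± 0.30. ELFN2, a postsynaptic adhesion protein that binds metabotropic glutamate receptors, was at 0.298 to 0.681 CPM with a median of 0.404 in MEIS1-OE and 0.0415 to 0.162 with a median of 0.0466 in ctrl-OE. The groups did not overlap, the log2 fold change was 2.31 ± 0.38, and the counts behind it were 54 and 11.

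C1QL4, a secreted protein of the C1q family, and ABCG4, a sterol transporter of the ABC family, were expressed in ctrl-OE. C1QL4 was at 3.67 to 5.55 CPM with a median of 4.36 in MEIS1-OE and 0.984 to 2.11 with a median of 1.23 in ctrl-OE, with a log2 fold change of 1.70 ± 0.19. ABCG4 was at 4.93 to 6.59 CPM with a median of 6.27 in MEIS1-OE and 3.20 to 4.32 with a median of 3.76 in ctrl-OE, with a log2 fold change of 0.67 ± 0.10. In both genes every MEIS1-OE library was above every ctrl-OE library.

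Of the enzymes, AK5, an adenylate kinase of the brain that interconverts adenine nucleotides, was at 3.75 to 5.32 CPM with a median of 4.84 in MEIS1-OE and 1.90 to 3.38 with a median of 2.23 in ctrl-OE. Its log2 fold change was 0.94 ± 0.11 and the groups did not overlap. ATP6V1E2, an isoform of the E subunit of the vacuolar proton pump, was at 2.13 to 2.97 CPM with a median of 2.80 in MEIS1-OE and 1.44 to 1.92 with a median of 1.68 in ctrl-OE. Although it had the longest match of the 9, its log2 fold change of 0.66 ± 0.13 was the smallest.

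ASS1, argininosuccinate synthase of the urea cycle, was the one gene whose groups overlapped. It was at 2.11 to 3.62 CPM with a median of 2.83 in MEIS1-OE and 1.31 to 2.16 with a median of 1.72 in ctrl-OE, and 5 of 6 MEIS1-OE libraries were above the highest ctrl-OE library. The log2 fold change was 0.72 ± 0.14. FAM131A was at 32.0 to 47.2 CPM with a median of 44.6 in MEIS1-OE and 22.0 to 30.2 with a median of 25.7 in ctrl-OE, without overlap, a log2 fold change of 0.75 ± 0.10. In all, the MEIS1-OE libraries were above every ctrl-OE library in 8 of the 9 genes, which were chosen in this comparison, and in 3.17% of all tested genes. MEIS1-OE library 3 was the lowest of its group in 4 of the 9 genes (C1QL4, FAM131A, ABCG4 and ASS1), with MEIS1 at 310.0 CPM in that library.

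**Figure D3:**
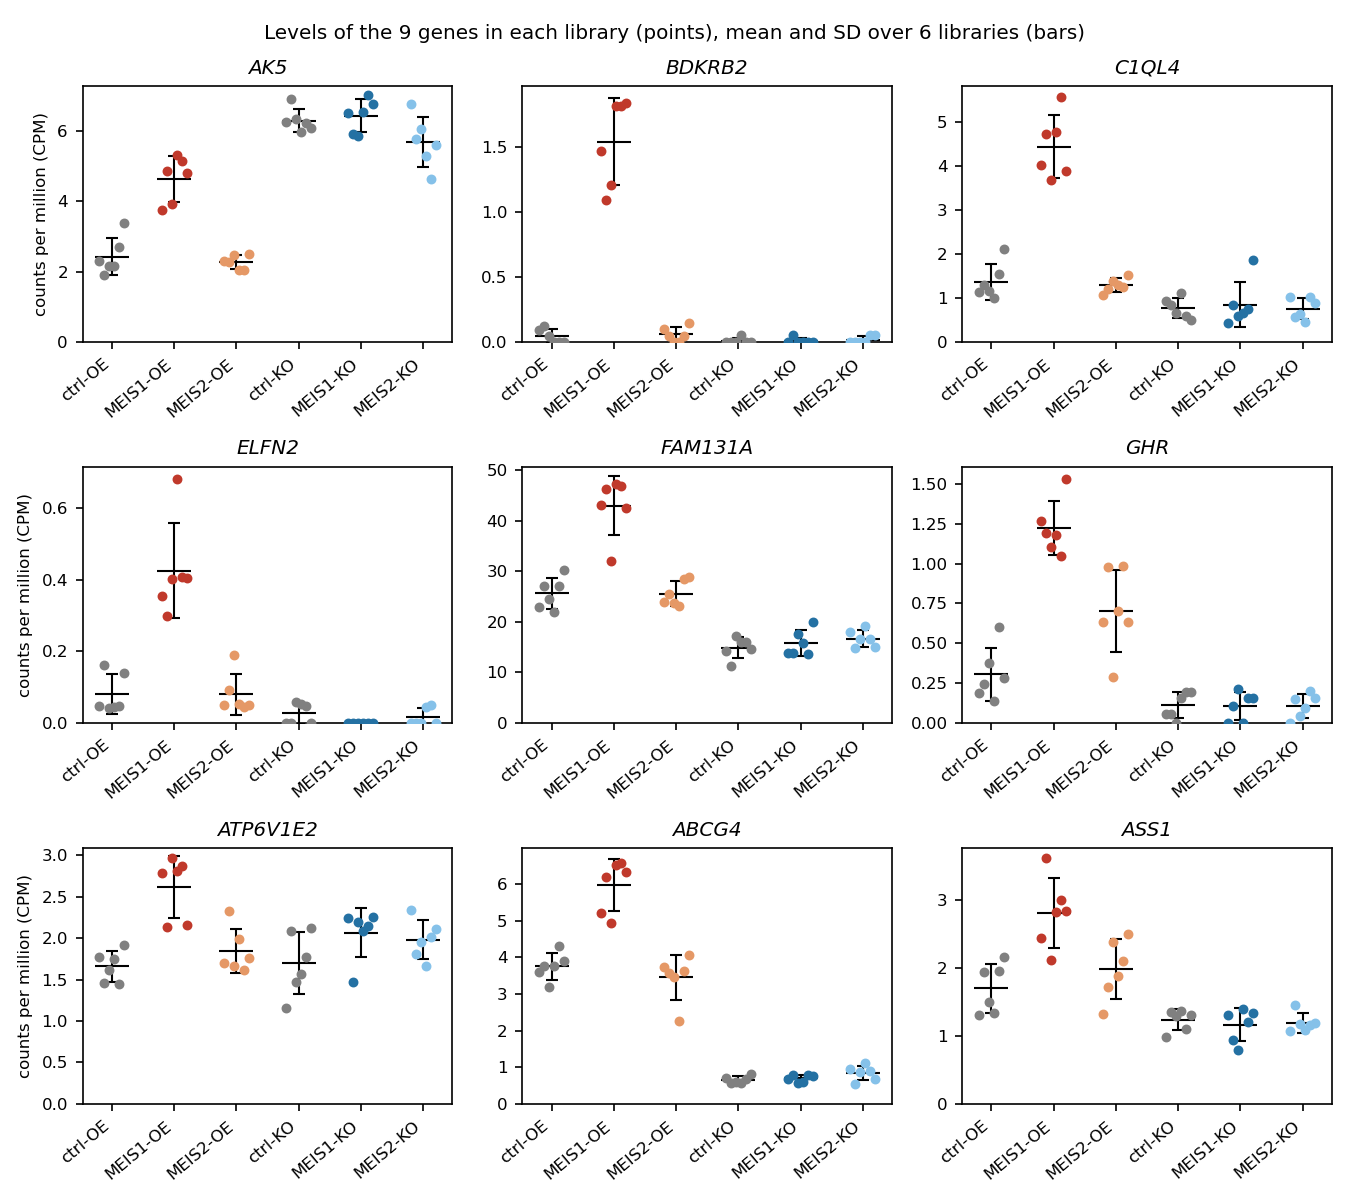
CPM of each gene (vertical axis, starting at 0) in the 36 libraries, by condition. Points are libraries, and bars give the mean and SD over 6 libraries; in 8 of 9 genes the MEIS1-OE libraries lie above every ctrl-OE library, and AK5 has a higher mean in each of the 3 knockout conditions than in MEIS1-OE.

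The knockout of MEIS1 was set beside the activation as a check for regulation by MEIS1. MEIS1 itself fell by 1.52 on the log2 scale in MEIS1-KO against ctrl-KO (± 0.08 SE, edgeR adjusted p = 4.0e-17). It remained at 0.348 of its ctrl-KO level, while in MEIS1-OE it was at 17.4 times its ctrl-OE level. The study reports that less MEIS1 protein after knockout was hard to detect because its base level was low. Whether the 9 genes depend on the remaining MEIS1 was not tested. In this comparison 57 of 19689 tested genes (0.290%) were called in either direction. Of the 9 genes 0 were called by edgeR and 0 by DESeq2, a count that with so few calls over all genes says nothing particular about these 9. At an unadjusted p under 0.05 edgeR gave 1, ELFN2, and DESeq2 gave 0. The share of all tested genes at this looser cut was not counted, so these counts have no background here. In 0 of the 9 were the 6 MEIS1-KO libraries all above or all below the ctrl-KO libraries, as they were in 273 of all tested genes (1.39%).

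The precision of this comparison differed between the genes. The 95% interval of the log2 fold change lay within the threshold of 0.58 on both sides in 5 genes. AK5 was at 6.44 ± 0.466 CPM in MEIS1-KO and 6.30 ± 0.331 in ctrl-KO, a log2 fold change of 0.03 with an interval from -0.17 to 0.23 (adjusted p = 0.960). FAM131A was at 15.8 ± 2.56 and 14.8 ± 2.09 CPM, with 0.09 (-0.13 to 0.30) on the log2 scale. The intervals of the log2 fold change were -0.32 to 0.50 for ABCG4, -0.46 to 0.28 for ASS1 and -0.01 to 0.55 for ATP6V1E2. ATP6V1E2 was at 2.07 ± 0.299 CPM in MEIS1-KO and 1.70 ± 0.373 in ctrl-KO (log2 fold change 0.27, edgeR adjusted p = 0.454), the same direction as in MEIS1-OE.

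The other 4 genes were estimated less closely in MEIS1-KO or not at all. C1QL4 had a log2 fold change of 0.18 with an interval from -0.38 to 0.74, and without replicate 6, which holds its highest MEIS1-KO library, the value was -0.32. The interval of GHR ran from -1.37 to 1.18 with 12 counts in MEIS1-KO and 13 in ctrl-KO. BDKRB2 had 1 count in each group, too few for a fold. ELFN2 had 0 counts in the 6 MEIS1-KO libraries and 3 in ctrl-KO, also too few. The 0 counts allow up to 0.0255 CPM, by counting error only. A decrease of BDKRB2 or ELFN2 in MEIS1-KO was not detectable at this depth.

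**Figure D4:**
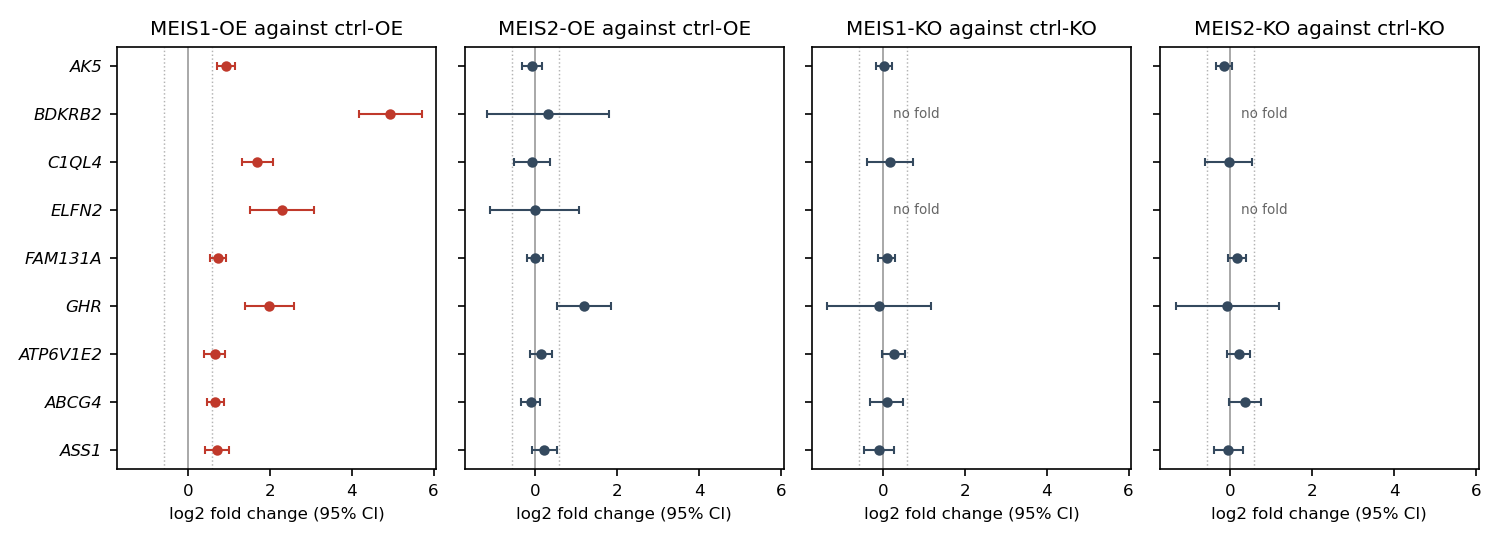
Log2 fold change of each gene with its 95% interval (horizontal axis) in the 4 comparisons against the respective control. Dotted lines mark 0.58 in both directions and "no fold" marks genes with at most 3 counts in each group; the MEIS1-OE values chose the genes, and no gene passed the test in the other 3 comparisons.

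In MEIS2-OE, 0 of the 9 genes were called, where 98 of 19689 (0.498%) were called in either direction. MEIS2 itself was at 793 to 852 CPM with a median of 824 in MEIS2-OE and 20.5 to 24.1 with a median of 22.8 in ctrl-OE. The comparison shares the ctrl-OE libraries with the one that chose the genes. At an unadjusted p under 0.05 edgeR gave 1 gene, GHR, a cut at which the share of all tested genes was not counted. DESeq2 called 1, also GHR. GHR was at 0.286 to 0.984 CPM with a median of 0.667 in MEIS2-OE, and 5 of 6 libraries were above the highest ctrl-OE library. Its log2 fold change was 1.20 ± 0.33 with an edgeR adjusted p of 0.0524, just outside the threshold, and over the alternatives tried the adjusted p ranged from 0.0127 to 0.431. It passed under 4 of them and did not pass when only the groups compared were fitted (adjusted p = 0.133) or without replicate 1, 2, 4, 5 or 6. The 8 other genes had log2 fold changes between -0.11 and 0.31. For AK5, C1QL4, FAM131A, ATP6V1E2, ABCG4 and ASS1 the 95% interval lay within 0.58 on both sides, while BDKRB2 (-1.18 to 1.79) and ELFN2 (-1.10 to 1.07) were too low for a close estimate.

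MEIS2-KO also gave 0 called genes of the 9, with 312 of 19689 (1.58%) called in either direction. Neither edgeR nor DESeq2 gave a gene an unadjusted p under 0.05 (0 and 0), and the share of all tested genes at this cut was not counted. ABCG4 had the highest log2 fold change, 0.36 with an interval from -0.03 to 0.75, and was at 0.842 ± 0.203 CPM in MEIS2-KO and 0.652 ± 0.0986 in ctrl-KO.

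The levels in the 2 control conditions differed for several of the genes. The 2 systems differ in vectors and Cas9, so the values are set side by side without a test. ABCG4 was at 3.76 CPM in ctrl-OE and 0.652 in ctrl-KO, 5.76 times higher in ctrl-OE, and no libraries overlapped. FAM131A was 1.73 times higher in ctrl-OE, also without overlap. AK5 went the other way: it was at 2.43 CPM in ctrl-OE and 6.30 in ctrl-KO, 2.60 times higher in ctrl-KO, so that the raised level in MEIS1-OE remained below every ctrl-KO library. ATP6V1E2 was at 1.66 and 1.70 CPM.

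Over the 36 libraries the 9 genes varied unevenly together. The Pearson correlation of a gene's log2 CPM with the mean of the other 8, standardized, was 0.93 for C1QL4, 0.91 for BDKRB2 and ELFN2, 0.89 for FAM131A, 0.83 for ASS1, 0.78 for GHR, 0.75 for ABCG4, 0.50 for ATP6V1E2 and -0.34 for AK5. These values share the difference between the activation and the knockout conditions as well as MEIS1-OE. The genes most like the mean of all 9, among 13458 with a mean of at least 1 CPM, were PIANP (r = 0.977), NRBP1 (0.973), C3orf37 (0.972), RABEP2 (0.965) and KIF5A (0.965). Of these 5, PIANP and RABEP2 hold a site near a start, with 13 and 11 bases. For NRBP1, C3orf37 and KIF5A no 8-base match followed by NGG was found within 1000 bases. Of tested genes with a position, 3.75% held such a match. All 5 were higher in MEIS1-OE (log2 fold changes of 0.77 to 3.50), the comparison that chose the 9. The correlations and the ranking are therefore partly set by that choice and were not tested. MEIS1 ranked 131 with r = 0.870.

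The genes next to the 9 were also compared in MEIS1-OE. Within 100 kb of the start of 6 of the 9 genes lay 29 tested genes, and 0 of them were called by edgeR or by DESeq2, with 2.84% of all tested genes called in either direction. By adjusted p alone 4 of the 29 passed, at an unadjusted p under 0.05 edgeR gave 6, and within 500 kb 12 of 127 genes were called. The shares of all tested genes by adjusted or unadjusted p alone were not counted, so those 2 counts have no background here. A count of 0 of 29 is near the level of all genes. The log2 fold changes ran from -0.31 to 0.58 with a median of 0.03. The highest was MFNG, 59 kb upstream of ELFN2, at 1.83 ± 0.334 CPM in MEIS1-OE and 1.23 ± 0.459 in ctrl-OE (log2 fold change 0.578, edgeR adjusted p = 0.0361), just under the fold change threshold. Distances between genes were taken from the outermost annotated starts. RHOQ starts 771 bases from that of ATP6V1E2, on the opposite strand. Its log2 fold change was 0.31 ± 0.05 (edgeR adjusted p = 9.6e-05), below the threshold in size. The ATP6V1E2 site lies near an internal start (chr2:46747096) and not near the outermost one (chr2:46769716). The gene models of RHOQ and ATP6V1E2 overlap, as do those of CLCN2 and FAM131A, and the strand setting of the counting is not given in the sources used here, so reads of these pairs may not be separable. CLCN2 had a log2 fold change of 0.19 ± 0.09. The other 3 genes, BDKRB2, GHR and ASS1, had no tested neighbour in this range.

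**Figure D5:**
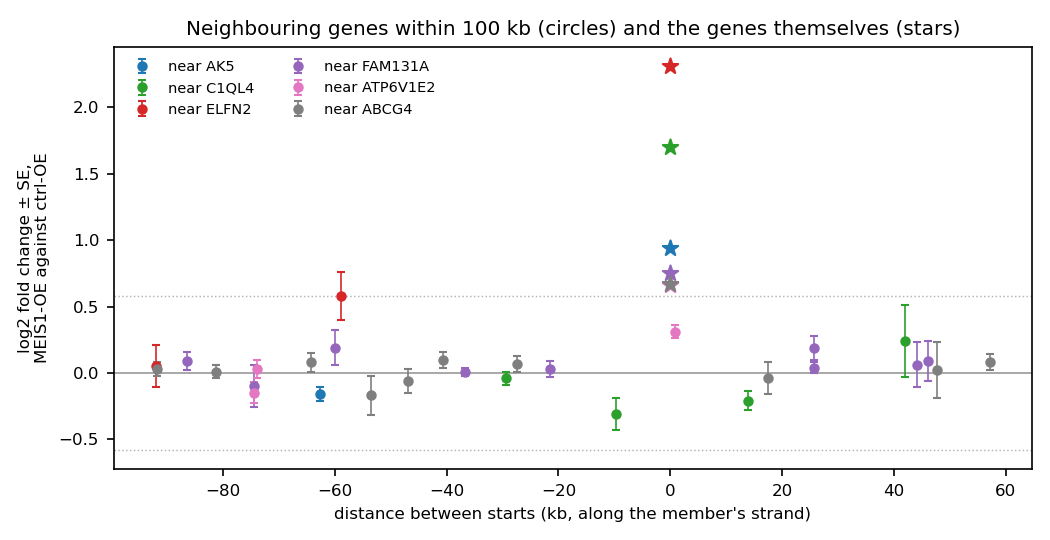
Log2 fold change with SE in MEIS1-OE against ctrl-OE (vertical axis) of tested genes within 100 kb. The horizontal axis gives the distance between outermost starts in kb, along the strand of the gene described. Circles are neighbours and stars are the genes themselves at 0 kb; all 29 neighbours lie between the dotted lines at 0.58 in both directions.

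Paralogs and partners of the 9 genes were looked up to see whether their pathways moved with them. Of 55 listed genes 46 were tested, none of which has an 8-base match with NGG near a start. In MEIS1-OE 1 of 46 (2.17%) was called higher and 0 lower, against 2.84% of all tested genes in either direction. It was ATP6V1A, the catalytic subunit of the same proton pump as ATP6V1E2, at 242 CPM in MEIS1-OE and 135 in ctrl-OE (log2 fold change 0.85 ± 0.05, edgeR adjusted p = 9.7e-16). In MEIS1-KO, 0 of 46 were called by edgeR or by DESeq2. At an unadjusted p under 0.05 edgeR gave 15 of 46 in MEIS1-OE and 9 of 46 in MEIS1-KO. By adjusted p alone 6 of 46 passed in MEIS1-OE, in both directions. The shares of all tested genes at these 2 looser cuts were not counted. Of the partners of GHR, CISH, a feedback inhibitor of cytokine receptors, had a log2 fold change of 0.34 (edgeR adjusted p = 0.0286), IGFBP3, a binding protein of insulin-like growth factors, had -0.18 (adjusted p = 0.0414), and SOCS2, another feedback inhibitor, had -0.19 (adjusted p = 0.137). The rest of the 6 were ARG2, the arginase of mitochondria, with 0.27 (adjusted p = 0.00107), FAM131B with 0.39 (adjusted p = 4.0e-06), and BAI3, the receptor of C1q-like proteins also named ADGRB3, with -0.30 (adjusted p = 0.0324). BDKRB1, KNG1 and KLKB1, the other receptor and the precursors of bradykinin signalling, had too few counts to be tested.

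The promoters of RefSeq (GRCh38.p14, 250 bases before to 50 after a start) held 7 of the 9 genes, without C1QL4 and ATP6V1E2. These 7 had 18 windows and all 27305 genes had 35116, so the 7 had more windows per gene. A gene counted if any of its windows held the letters, which favours the 7 in each share below. The core of the MEIS binding motif, TGACAG on either strand, was in a window of 2 of the 7, AK5 and GHR, and in 18.6% of 27305 genes. The letters AGGCGGAG were in 4 of the 7 (ABCG4, BDKRB2, FAM131A and GHR) and in 5.21% of genes. Followed by NGG they were in 3 of the 7 (ABCG4, BDKRB2 and GHR) and in 0.652% of genes. Both shares of AGGCGGAG restate in another build the property that chose the genes, so neither is a result. A match is a run of letters and was not tested for binding by MEIS1 or by the guide.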

How the data were processed

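RNA-seq counts of 36 libraries were used. According to the labels and the methods of the study, the authors made stranded poly-A libraries, used STAR to align reads of 100 bases to hg19 (GRCh37), and HTSeq 0.6.0 for counting on genes. STAR is given as 2.4.2a in the design text and as 2.7.0a, beside Trimmomatic 0.39, in the submitters' processing notes. The deposited values are raw counts per gene symbol.

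Genes with at least 10 counts over all libraries (19689 of 28516) were tested with edgeR 4.0.16 in R 4.3.3, with TMM normalization and quasi-likelihood tests in one fit of 6 conditions, two-sided, with Benjamini-Hochberg adjustment over the full set of tested genes. All 9 genes passed this filter also on the other 30 libraries alone. CPM use TMM-scaled totals, and log2 CPM a prior count of 2. Genes with at most 3 counts in both groups were given no fold. On simulated data for MEIS1-KO against ctrl-KO, 200 of 200 genes changed by 1 on the log2 scale, among 19511, were recovered with 0 false calls. The changed genes were drawn only from genes with higher mean counts than C1QL4, ASS1, ATP6V1E2, GHR, BDKRB2 and ELFN2 have. The simulation therefore does not show how well a change in these genes would be found. No 2 libraries of a condition agreed within sampling noise (chi-square per degree of freedom 2.74 to 38.6 over 90 pairs).

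Sites were searched in GRCh37 with the lifted GENCODE v44 annotation, which placed 86.7% of tested genes, including 1214 that matched by an older symbol. The 20-base target was read from the genome at MEIS1, as the only place in that locus where AGGCGGAG is followed by NGG, and equals the guide listed in the study's methods. The sequence and position of the ASS1 site are not reported here.

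The genes and the lists of paralogs, partners and markers were chosen with earlier results of these data known. The design assumed that the 9 came from the MEIS1 contrast of overexpression minus knockout, in which 5 of 9 passed. All 9 passed in MEIS1-OE against ctrl-OE, so MEIS1-KO was treated as not used by the choice. Whether the knockout played a part in taking these 9 from the larger group is not known. Named besides the 9 were genes with a run of 10 or more bases, genes next to a threshold, neighbours and paralogs that passed, and the 5 most alike genes; MFNG, RHOQ, CLCN2, CISH, IGFBP3, SOCS2, BAI3, ARG2, FAM131B, CARD10, FYN, DAP and AGO1 were named after their values were seen.

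Alternatives were RLE size factors, filterByExpr, no filter, DESeq2 1.42.0, only the groups compared, replicate number as a block, adjusted p alone, each replicate left out, and other match lengths and windows. Libraries with the same replicate number were not paired in the main fit. Their deviations correlated at 0.0361 on average, with 16 of 90 pairs above 0.1. For different numbers the average was -0.00732, with 51 of 450 pairs above 0.1. Whether the replicate numbers share a small effect was not tested.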

Additional observations from a re-analysis of the deposited data

Results flagged for a closer look

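Dixon's test for a sample far from the others was run on the CPM of the 9 genes in 54 groups of 6 libraries and marked 9, where chance marks about 1 group in 20. Of these, 3 rest on few reads: BDKRB2 in ctrl-KO library 4 (0.0524 CPM) and in MEIS1-KO library 2 (0.0524 CPM) are single reads beside libraries at 0, and ELFN2 in MEIS2-OE library 3 (0.191 CPM) is 4 reads. ELFN2 was also far above the others in MEIS1-OE library 4, at 0.681 CPM against 0.409 in the next library. C1QL4 in MEIS1-KO library 6 was at 1.85 CPM against 0.839 in the next library, and the direction of its fold change in MEIS1-KO turns without that replicate number.

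Low libraries were FAM131A in MEIS1-OE library 3, at 32.0 CPM against 42.5 in the next, ATP6V1E2 in MEIS1-KO library 2, at 1.47 CPM against 2.09, and ABCG4 in MEIS2-OE library 4, at 2.26 CPM against 3.48. ASS1 in MEIS2-KO library 2 was high at 1.46 CPM against 1.18. Apart from MEIS1-KO library 2, which stood apart for BDKRB2 and ATP6V1E2 in opposite directions, no library was marked for more than 1 gene.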

How the results depend on the processing

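The count of the 9 genes called in MEIS1-KO and in MEIS2-KO was 0 under every alternative run. In MEIS2-OE it was 1 (GHR) with filterByExpr (adjusted p = 0.0398), DESeq2 (0.0249) or the replicate block (0.0437) and 0 to 1 with replicates left out (1 without replicate 3, adjusted p = 0.0127, of a range up to 0.431). Neighbours called in MEIS1-OE numbered 1 with filterByExpr or the replicate block, 0 to 1 with replicates left out, 4 by adjusted p alone, and 12 of 127 with a window of 500 kb. Called paralogs and partners in MEIS1-OE numbered 1 to 3 with replicates left out (3 without replicate 6) and 6 by adjusted p alone. The replicate block changed no other call. The number of genes with a site was 174, 16 and 5 for at least 9, 11 and 12 bases, 222 without the PAM, and, added after the data were seen, 641 for 8 bases, 499 within 500 bases and 273 within 150 bases. The 9 genes with a site numbered 2 at 9 bases, and 9, 7 and 6 at 8 bases in these windows.

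With replicates left out, log2 fold changes that turned sign, none of them called, ranged in MEIS1-KO from -0.32 to 0.39 for C1QL4, -0.61 to 0.26 for GHR and -0.18 to 0.01 for ASS1. In MEIS2-OE they ranged from -0.40 to 0.95 for BDKRB2, -0.16 to 0.03 for C1QL4, -0.58 to 0.28 for ELFN2 and -0.02 to 0.01 for FAM131A, and in MEIS2-KO from -0.22 to 0.23 for C1QL4, -0.30 to 0.10 for GHR and -0.09 to 0.01 for ASS1. The cause was not tested. In MEIS1-OE all 9 were above 0 under every alternative, except that filterByExpr drops ELFN2, with the lowest value 0.60 for ATP6V1E2, and BDKRB2 ranged from 4.66 to 5.63. Depth limits BDKRB2, ELFN2 and GHR in the knockout conditions, where their counts were at most 13 per condition.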

Other observations

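In a wider window, the largest number of called neighbours in MEIS1-OE lay around ELFN2, and whether this differs from the other 8 genes was not tested. Of 27 tested genes whose start lies within 500 kb of that of ELFN2, 7 (25.9%) were called higher and 0 lower, beside 2.84% of all tested genes called in either direction. The window of 500 kb was tried beside that of 100 kb, and the 7 genes are named after their values were seen. On the downstream side lay CYTH4 at 145 kb, RAC2 at 168 kb, SSTR3 at 215 kb, C1QTNF6 at 228 kb, IL2RB at 252 kb and TMPRSS6 at 318 kb, and upstream lay SH3BP1 at 207 kb. IL2RB, the beta chain of the interleukin-2 receptor, was at 51.4 ± 4.85 CPM in MEIS1-OE and 17.8 ± 2.07 in ctrl-OE (log2 fold change 1.53 ± 0.11 SE, edgeR adjusted p = 2.5e-14). SSTR3, a somatostatin receptor, was at 4.14 ± 0.929 and 0.531 ± 0.117 CPM (2.95 ± 0.18, adjusted p = 1.5e-15). C1QTNF6 had a log2 fold change of 1.07 ± 0.07 and RAC2 of 0.97 ± 0.18. CYTH4 had 33 counts in MEIS1-OE and 2 in ctrl-OE, and TMPRSS6, a serine protease of iron metabolism, 146 and 3.

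None of the 7 was called in MEIS2-OE, MEIS1-KO or MEIS2-KO by edgeR. Of all tested genes 0.498%, 0.290% and 1.58% were called there, so this says nothing particular about the 7. CYTH4, TMPRSS6 and SSTR3 had at most 4 counts in each knockout condition, too few for a call. RAC2 in MEIS2-KO was just outside the threshold (log2 fold change 0.92 ± 0.32, edgeR adjusted p = 0.0591). None of the 7 had an 8-base match followed by NGG within 1000 bases of a start. Within 500 kb of the start of ELFN2, 8 further such matches were found, the most around any of the 9 genes, with the longest, of 10 bases, 73.6 kb upstream. Nearer to ELFN2 than any of the 7 were CARD10, 92.1 kb upstream, with a log2 fold change of 0.05, and MFNG, 59 kb upstream, with 0.578 (edgeR adjusted p = 0.0361). The 3 other genes with called neighbours in this range were C1QL4 (2 of 28, 7.14%), ABCG4 (2 of 25, 8%) and FAM131A (1 of 20, 5%, VWA5B2, lower by a log2 fold change of -1.33). Of those near C1QL4, KCNH3, a potassium channel 202 kb upstream, had a log2 fold change of 2.19 ± 0.27.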
